A study of Mus musculus with 8 samples.

Results

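A set of 5 blood-borne microRNAs (miRNAs) was followed in the medium of muscle cell cultures: mmu-miR-451a, mmu-miR-144-3p, mmu-miR-486a-5p, mmu-miR-185-5p and mmu-miR-122-5p, written below without the species prefix. They were taken by name from the array files, which measure 1881 mouse miRNAs, and all 5 were found there. They were chosen as a gauge of blood and serum RNA in the medium, with miR-486 also known from muscle. Detection differed widely among them: miR-451a and miR-486a-5p were detected on all 8 arrays, miR-122-5p on 7, miR-185-5p on 2 and miR-144-3p on none. None of the 4 that could be tested differed between the media past the threshold.

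The series asked what primary mouse myocytes that carry human SOD1 release into shared medium. Myoblasts from the hind limb muscle of newborn mice (1 to 3 days old) were seeded in the bottom chamber and in the insert of transwell plates, whose insert has 0.4 µm pores. The mice overexpressed either wild-type human SOD1, hSOD1(WT), in strain B6SJL(Tg-SOD1)2Gur/J, or the G93A mutant, hSOD1(G93A), in strain B6SJL(Tg-SOD1*G93A)1Gur/J, which is used as a model of amyotrophic lateral sclerosis. The 3 groups, written as bottom chamber/insert, were WT/WT with 2 samples, G93A/WT with 3 and G93A/G93A with 3. All cultures carried a human SOD1 transgene, so that none was free of it, and every sample was labelled male. Medium was taken at 2 days in vitro, and 150 ng of small RNA was hybridised to each 1-colour array. The labels call the samples biological replicates and do not say how many pups went into each. Cells were grown in 10% foetal bovine serum until 2 days in vitro and then in 2% horse serum, and the labels do not say which medium the collected samples held. An array probe reads a mouse miRNA and a bovine or equine one of identical sequence alike, and medium without cells was not analysed here.

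miRNAs are short RNAs that guide Argonaute proteins to messenger RNAs, mainly through their seed, bases 2 to 8. miR-451a and miR-144 are made from 1 transcript that the factor GATA1 switches on as red cells mature. miR-451a is the exception among miRNAs in how it is made: its hairpin is too short for Dicer and is cut by Argonaute 2 itself, so that the mature strand runs into the loop. It is very abundant in red blood cells and is released when they lyse, which makes it a usual marker of haemolysis in serum. miR-486 lies within the gene of erythrocyte ankyrin (Ank1), is abundant in red cells, and is also made in skeletal and cardiac muscle from a muscle promoter of that gene. miR-185 is another miRNA that accumulates in red cells, and miR-122 is the dominant miRNA of hepatocytes and circulates in serum.

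The sequences of the shared erythroid locus are shown because miR-451a was detected in the medium and miR-144 was not. They are from RefSeq (GRCm38.p6), 5′ to 3′, and 2 of the 5 members had a mature entry in the table used. In the mature strands the capitals mark the seed.
miR-451a: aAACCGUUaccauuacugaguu
miR-144-3p: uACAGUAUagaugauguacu
miR-144-5p: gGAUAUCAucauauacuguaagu
In the hairpins the capitals mark the mature strands.
Mir451a: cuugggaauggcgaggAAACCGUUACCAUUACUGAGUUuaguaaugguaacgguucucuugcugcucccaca
Mir144: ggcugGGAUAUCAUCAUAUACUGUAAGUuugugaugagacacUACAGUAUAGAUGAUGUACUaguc
Both hairpins lie on the plus strand of chromosome 11, Mir144 at chr11:78073005-78073070 and Mir451a at chr11:78073170-78073241, with 99 bases between them. Mature miR-451a takes bases 17 to 38 of its hairpin of 72 bases. The 3 seeds differ from each other, and none of the other array miRNAs with a RefSeq mature sequence (1608 in all with one) shares any of them. By the same annotation Mir486 lies within Ank1 on chromosome 8 and Mir185 within Tango2 on chromosome 16.

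The arrays differed in brightness more than most members differed between groups. The summed signal ran from 115122 to 202908 units per array and the number of detected miRNAs from 450 to 563, both highest on G93A/WT 2. All G93A/WT arrays were brighter than every other array, at 143713, 202908 and 167513 units against at most 139644. They also had more detected miRNAs, at 497, 563 and 520 against at most 483. Brightness thus went with the G93A/WT medium, and its part in the members' values was not tested. Each array was scaled to an equal 75th percentile over the 423 miRNAs detected on all of them, with factors from 0.593 to 1.44, and log2 was taken. An undetected miRNA was set to a floor of 0.60 on that log2 scale. Over the 538 miRNAs tested, r was 0.970 to 0.990 within groups and 0.939 to 0.984 across them. The 8 arrays filled 1 slide. All G93A/WT arrays lay in row 1 beside WT/WT 1, while row 2 combined WT/WT 2 with all G93A/G93A arrays. The slide row and the difference between G93A/WT and G93A/G93A are thus separated only through 1 WT/WT array in each row.

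miR-451a was detected on every array, with a measurement error of 7.36% to 7.84% of its signal. Its deposited signal was 639 and 746 units in WT/WT, 1203, 2006 and 1709 in G93A/WT, and 691, 866 and 1276 in G93A/G93A. In the unscaled signals all G93A/WT arrays were thus above both WT/WT arrays, and the G93A/G93A arrays spanned the range between. After scaling, its log2 signal was 9.84 and 9.72 in WT/WT, 10.13, 10.22 and 10.33 in G93A/WT, and 9.64, 10.15 and 10.28 in G93A/G93A. The groups kept the order WT/WT, G93A/G93A, G93A/WT, with means of 9.78 ± 0.09 (SD, n = 2), 10.02 ± 0.34 (SD, n = 3) and 10.23 ± 0.10 (SD, n = 3). WT/WT and G93A/WT did not overlap, while G93A/G93A overlapped both, with replicate 1 the lowest of all 8 arrays.

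**Figure D1:**
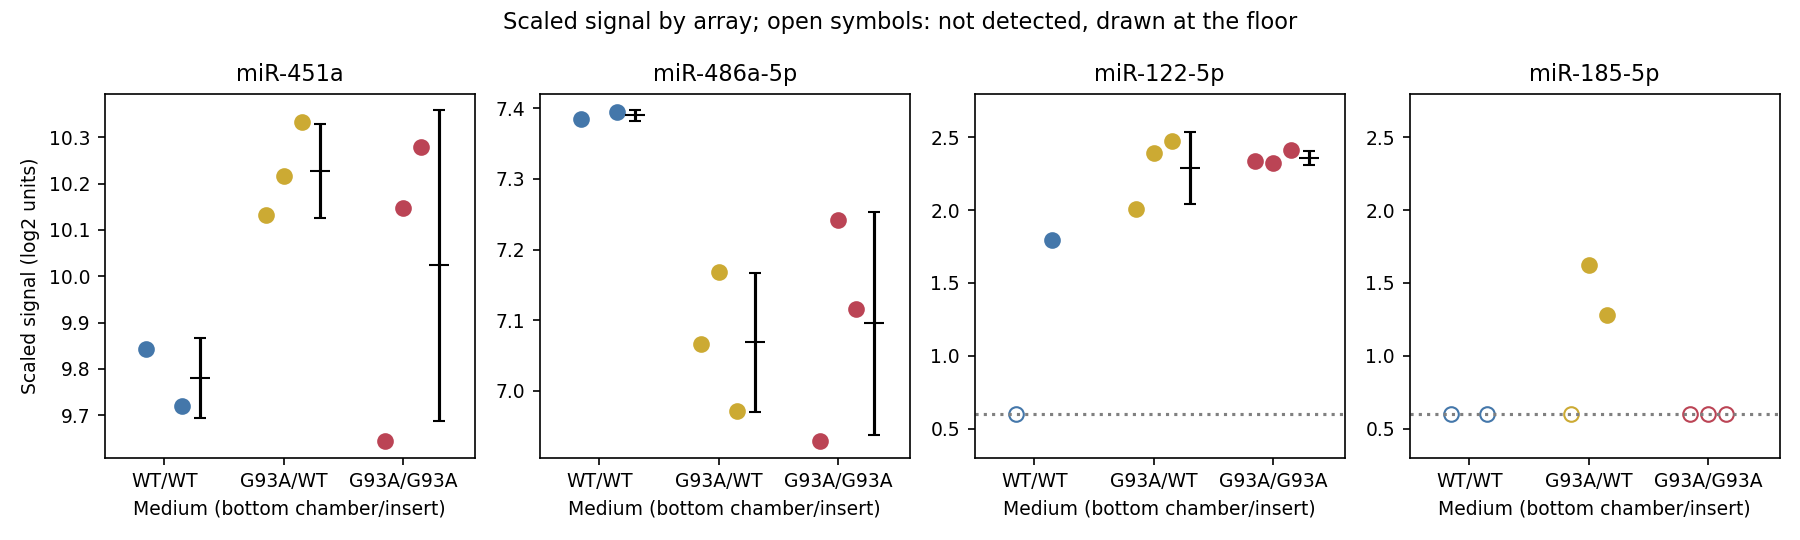
Scaled log2 signal of 4 miRNAs on each array (points), by medium, with the mean and SD beside groups detected on every array. miR-451a runs from 9.64 to 10.33 and miR-486a-5p from 6.93 to 7.40, while miR-122-5p and miR-185-5p lie near the floor of 0.60 (dotted line), where open symbols mark arrays without detection.

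In limma the difference in log2 scaled signal of miR-451a between G93A/WT and WT/WT was 0.45 ± 0.19 (SE, adjusted p = 0.212), a 1.36-fold higher signal with a 95% interval from −0.01 to 0.91. G93A/G93A against WT/WT gave 0.24 ± 0.19 (SE, adjusted p = 0.483), with an interval from −0.22 to 0.70. G93A/G93A against G93A/WT gave −0.20 ± 0.17 (SE, adjusted p = 0.444), with an interval from −0.61 to 0.21. None of the 3 passed, and the intervals leave room for a change of nearly 1 on the log2 scale in the first of them. Within slide row 1 the first difference was 0.38, and within row 2 the second was 0.30 (adjusted p = 0.207 and 0.768 in limma). Each row holds 1 WT/WT array, so that every value within a row sets 1 array against 3, with no replicate in WT/WT. The second difference rested on single arrays, at 0.45 without G93A/G93A 1 and 0.11 without G93A/G93A 3 (adjusted p = 0.0923 and 0.794 in limma), as did the third, at −0.02 and −0.33 without the same arrays (adjusted p = 0.910 and 0.201 in limma).

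The call on miR-451a depended on scaling. Without any scaling its log2 difference between G93A/WT and WT/WT was 1.22 (adjusted p = 0.0336 in limma), but the median over all tested miRNAs was then 0.79. With the authors' processed values it was 0.68 (adjusted p = 0.158 in limma) and with quantile normalization 0.61 (adjusted p = 0.169 in limma). Under median scaling it was smaller than reported above, at 0.33 (adjusted p = 0.221 in limma). The authors' processed values of miR-451a were 816 and 782 in WT/WT, 1185, 1272 and 1404 in G93A/WT, and 794, 1065 and 1316 in G93A/G93A. They repeat the pattern of the scaled values, with G93A/WT above WT/WT and G93A/G93A 1 beside WT/WT.

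**Figure D2:**
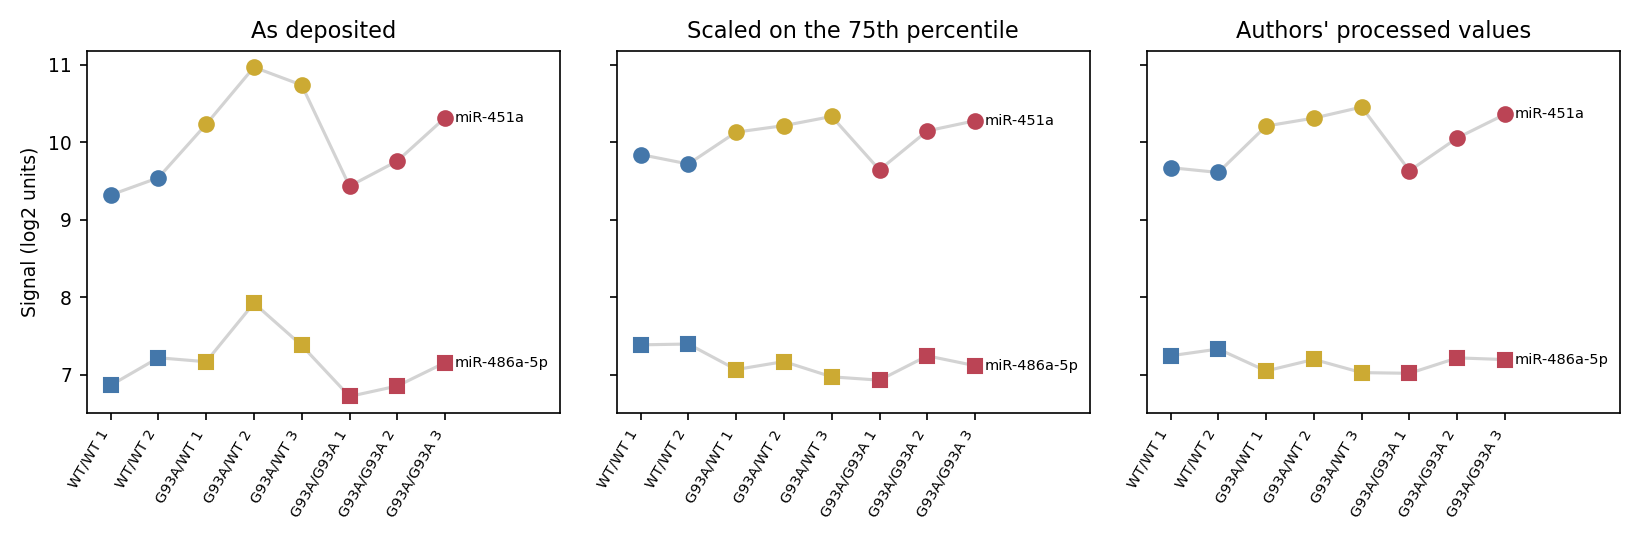
log2 signal of miR-451a (circles) and miR-486a-5p (squares) on the 8 arrays in the deposited signals, after scaling on the 75th percentile and in the authors' processed values; colours mark the groups, and the grey lines only join points of 1 miRNA. In all 3 panels miR-451a is higher on the G93A/WT arrays than on the WT/WT arrays, whereas miR-486a-5p is lower on them once the arrays are scaled.

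miR-144-3p, the partner of miR-451a on the same transcript, was detected on none of the 8 arrays, nor was its other arm miR-144-5p. The lowest signal called detected on an array ran from 1.31 to 1.59 units before scaling, which is the only bound the files give for it. Of all 1881 miRNAs 1295 (68.8%) were likewise detected on no array. Both arms of miR-144 are poor in G and C: miR-144-3p holds 6 G or C bases among 20 (30.0%) and miR-144-5p 7 among 23 (30.4%). miR-451a holds 8 among 22 (36.4%). Among array miRNAs with at most 40% G and C, 27 of 231 (11.7%) were detected on all arrays. Between 40% and 60% it was 204 of 972 (21.0%), and above 60% it was 128 of 405 (31.6%). In the same order 185, 689 and 239 were detected on no array. miR-451a was among the 27, and both arms of miR-144 were among the 185. The part of base composition in the missing miR-144 signal was not tested.

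miR-486a-5p was detected on every array, with an error of 7.41% to 8.36% of its signal. Its deposited signal was 116 and 149 units in WT/WT, 144, 243 and 166 in G93A/WT, and 105, 116 and 143 in G93A/G93A. Scaled to log2 these became 7.38 and 7.40 in WT/WT, 7.07, 7.17 and 6.97 in G93A/WT, and 6.93, 7.24 and 7.12 in G93A/G93A. Both WT/WT arrays were above all the other arrays after scaling, and the 2 mutant-containing media overlapped. The order of the means was WT/WT (7.39 ± 0.01, SD, n = 2), G93A/G93A (7.10 ± 0.16, SD, n = 3) and G93A/WT (7.07 ± 0.10, SD, n = 3).

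The difference in log2 scaled signal of miR-486a-5p was −0.32 ± 0.13 between G93A/WT and WT/WT (SE, adjusted p = 0.176 in limma; 95% interval −0.62 to −0.03). It was −0.29 ± 0.13 between G93A/G93A and WT/WT (SE, adjusted p = 0.190 in limma; interval −0.59 to 0.00). Between G93A/G93A and G93A/WT it was 0.03 ± 0.11 (SE, adjusted p = 0.871 in limma; interval −0.24 to 0.29). None passed after adjustment. Within row 1 the first was −0.32 and within row 2 the second −0.30. Without scaling the first turned to 0.45 and the third to −0.58, neither past the threshold (adjusted p = 0.235 and 0.113 in limma).

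The passenger strands of the 2 mouse miR-486 hairpins, miR-486a-3p and miR-486b-3p, were also detected on every array, near the limit of detection. miR-486a-3p had a log2 scaled signal of 3.03 and 3.65 in WT/WT, 3.65, 3.71 and 3.75 in G93A/WT, and 3.12, 3.46 and 3.97 in G93A/G93A. It did not share the high WT/WT values of miR-486a-5p: WT/WT 1 was its lowest array. miR-486b-3p was steadier, at 2.96 and 3.05 in WT/WT, 2.79, 2.91 and 2.87 in G93A/WT, and 2.97, 3.14 and 3.08 in G93A/G93A, and was lowest in G93A/WT. Neither passed in any comparison (adjusted p from 0.168 to 0.798 in limma). Over the 8 arrays miR-486a-5p correlated with miR-486b-3p at r = 0.43 and with miR-486a-3p at r = −0.17, as a description of points that share slide and scaling. miR-486b-5p had no entry of its own among the miRNAs measured, so that the 5p strands of the 2 hairpins were not told apart.

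miR-486 is also a muscle miRNA, so the muscle-enriched miRNAs were set beside it. Of 8 listed (miR-1a-3p, miR-133a-3p, miR-133b-3p, miR-206-3p, miR-208a-3p, miR-208b-3p, miR-499-5p and miR-486a-5p itself), 5 were tested and none passed in any comparison. miR-208a-3p and miR-208b-3p, encoded in myosin heavy chain genes, were detected on no array. The median differences of the 5 were −0.03, 0.08 and −0.03 in the order of comparisons above, beside 0.04, −0.01 and −0.10 over all 538 miRNAs. Their summed scaled signal overlapped between groups, from 4689 to 5362 units in WT/WT, 4475 to 5402 in G93A/WT and 4216 to 5202 in G93A/G93A.

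miR-122-5p was close to the limit of detection, at 3.20 to 6.59 times its error where it was detected. Its deposited signal was 3.06 units on WT/WT 2, with no detection on WT/WT 1, then 4.32, 8.84 and 7.36 in G93A/WT, and 4.36, 3.83 and 5.47 in G93A/G93A. The scaled log2 signal was 1.79 on WT/WT 2, 2.01, 2.39 and 2.47 in G93A/WT, and 2.34, 2.33 and 2.41 in G93A/G93A. Both WT/WT arrays were below the other 6, which overlapped with each other.

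From WT/WT, miR-122-5p differed on the log2 scale by 1.10 ± 0.33 in G93A/WT (SE, adjusted p = 0.101 in limma) and 1.16 ± 0.33 in G93A/G93A (SE, adjusted p = 0.0780 in limma). Both values depend on the floor, because WT/WT 1 enters at it. Without WT/WT 1 they were 0.53 and 0.59 (adjusted p = 0.281 and 0.201 in limma), and without WT/WT 2, which leaves the undetected array alone, 1.72 and 1.79 (adjusted p = 0.0148 and 0.00676 in limma). Within row 1 the first was 1.69 and within row 2 the second 0.57 (adjusted p = 0.0656 and 0.128 in limma). Fitted with a slide row block, the first was likewise 1.69 (adjusted p = 0.0164 in limma), a value that rests on the undetected WT/WT 1 at the floor as its only WT/WT array and gives no support for a difference.

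G93A/G93A and G93A/WT differed in miR-122-5p by 0.07 ± 0.29 (SE, adjusted p = 0.876 in limma, interval −0.63 to 0.76), and with a slide row block by −1.13 (adjusted p = 0.191 in limma). The value with the block rests on the WT/WT arrays, which alone tie the rows together, and WT/WT 1 entered at the floor. The authors' processed values ordered the media otherwise: 0.380 and 4.44 in WT/WT, 2.78, 3.78 and 1.63 in G93A/WT, and 6.46, 6.81 and 6.18 in G93A/G93A. There WT/WT 2 lay above all G93A/WT arrays. The differences were 0.99 and 2.32 from WT/WT and 1.33 between G93A/G93A and G93A/WT (adjusted p = 0.567, 0.182 and 0.343 in limma). The other miRNAs typical of liver, miR-122-3p, miR-192-5p and miR-194-5p, were detected on no array.

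miR-185-5p was detected on G93A/WT 2 and G93A/WT 3 alone, with deposited signals of 5.20 and 3.21 units, or 4.58 and 3.04 times its error. These were also the 2 brightest arrays, with the lowest scale factors. It entered the test only through these arrays, so that its presence among the tested miRNAs is no support for a difference. With the undetected arrays at the floor it did not pass (adjusted p = 0.235 against WT/WT and 0.155 between G93A/G93A and G93A/WT in limma). No fold or bound is given, because G93A/WT 1 did not detect it either. miR-185-3p, the other arm, was detected on no array.

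**Figure D3:**
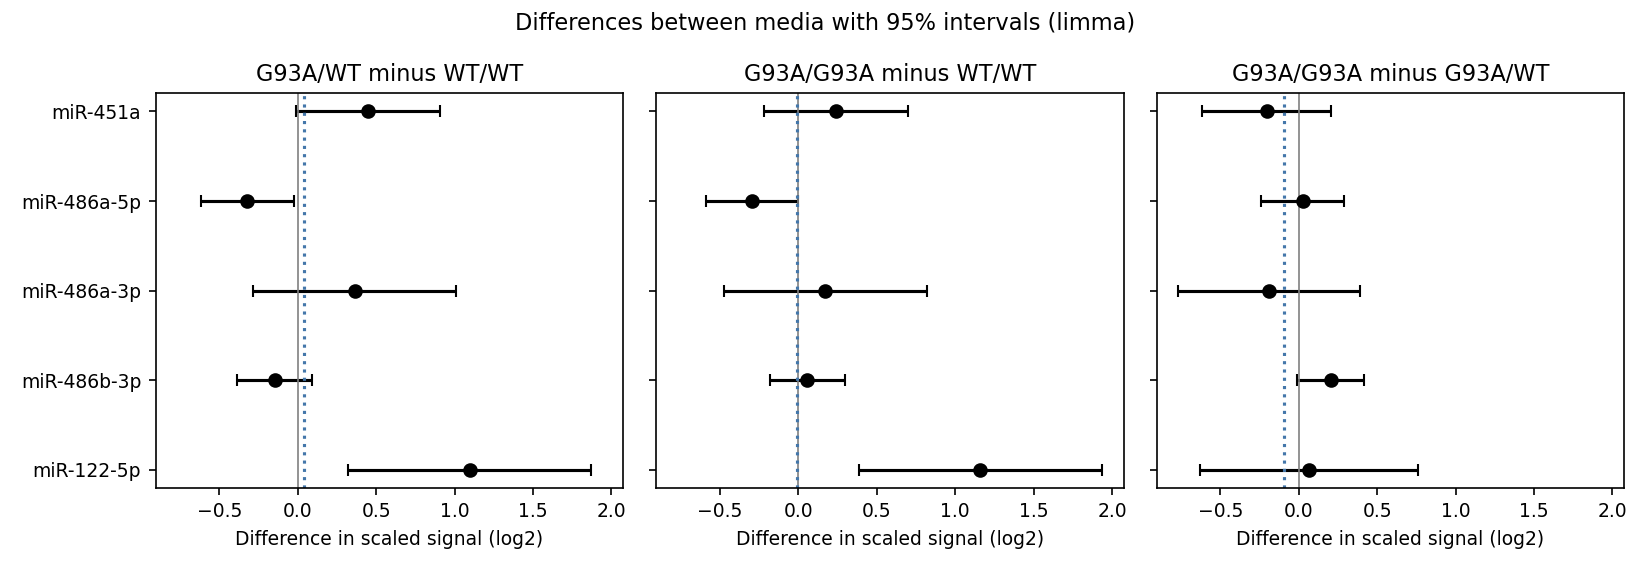
Differences in log2 scaled signal between media with 95% intervals from limma (points and bars) for miR-451a, miR-486a-5p, miR-122-5p and the miR-486 passenger strands; the dotted line is the median of all tested miRNAs. For miR-451a the 3 intervals include 0. The widest displacement is that of miR-122-5p from WT/WT, 1.10 and 1.16, with 1 undetected WT/WT array at the floor (0.53 and 0.59 without that array).

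None of the members passed in any comparison, where 3.9%, 8.55% and 10.6% of the 538 tested miRNAs did. Both comparisons with G93A/WT tested 4 members, and that between G93A/G93A and WT/WT tested 3, since miR-185-5p was undetected on all their arrays. By direction, 3.16% were higher and 0.743% lower in the first, 3.72% and 4.83% in the second, and 5.39% and 5.2% in the third. At an unadjusted p under 0.05, limma gave 2 members between G93A/WT and WT/WT (miR-486a-5p and miR-122-5p), 1 between G93A/G93A and WT/WT (miR-122-5p) and 0 between G93A/G93A and G93A/WT, against 24.5%, 26.6% and 32.2% of all tested miRNAs. Between G93A/WT and WT/WT the arrays of miR-451a and miR-122-5p (higher) and of miR-486a-5p (lower) did not overlap, where 19.3% of tested miRNAs lay wholly higher, 26% wholly lower and 45.4% either way. Between G93A/G93A and WT/WT this held for miR-122-5p (higher) and miR-486a-5p (lower), against 18% higher, 22.7% lower and 40.7% either way. Between G93A/G93A and G93A/WT the arrays of all 4 members overlapped, against 15.6% of tested miRNAs wholly higher, 19.1% wholly lower and 34.8% either way. With 2 and 3 arrays a group, such shares are a wide background.

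The ratio of the 2 members detected on all arrays is left as it is by 1 scale factor per array, because both are read on the same array. The log2 ratio of the miR-451a signal to the miR-486a-5p signal was 2.46 and 2.32 in WT/WT, 3.07, 3.05 and 3.36 in G93A/WT, and 2.72, 2.91 and 3.16 in G93A/G93A. All 6 arrays of mutant-containing medium were above both WT/WT arrays. The ratio was higher than in WT/WT by 0.77 in G93A/WT and by 0.54 in G93A/G93A, each with p = 0.1 in an exact permutation test, 2-sided, the smallest value that 2 against 3 arrays can give (adjusted p = 0.3 over the 9 ratio comparisons). G93A/G93A and G93A/WT differed by −0.23 (exact permutation p = 0.3, adjusted 0.54). In the authors' processed values, which are not scaled by 1 factor, the 3 differences were 0.88, 0.52 and −0.36 (exact permutation p = 0.1, 0.2 and 0.3). Neither ratio difference can pass in this design, and the height of a ratio between 2 different probes has no meaning of its own.

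Set against miR-206-3p, a miRNA specific to skeletal muscle, the 2 members gave different patterns, without a test between them. The log2 ratio of miR-451a to miR-206-3p was −1.44 and −2.03 in WT/WT, −0.93, −1.15 and −1.05 in G93A/WT, and −1.64, −1.07 and −0.95 in G93A/G93A. G93A/WT was above WT/WT on every array, by a mean of 0.69 (exact permutation p = 0.1, adjusted 0.3), and G93A/G93A overlapped both, 0.51 above WT/WT (exact permutation p = 0.3, adjusted 0.54). These rested on the WT/WT arrays, at 0.98 and 0.81 without WT/WT 1 and at 0.39 and 0.22 without WT/WT 2. The log2 ratio of miR-486a-5p to miR-206-3p ran from −4.35 to −3.89 in WT/WT, from −4.41 to −3.99 in G93A/WT and from −4.35 to −3.97 in G93A/G93A. These overlapped fully, with mean differences from WT/WT of −0.08 and −0.02 (exact permutation p = 0.7 and 0.9, adjusted 0.788 and 0.9).

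**Figure D4:**
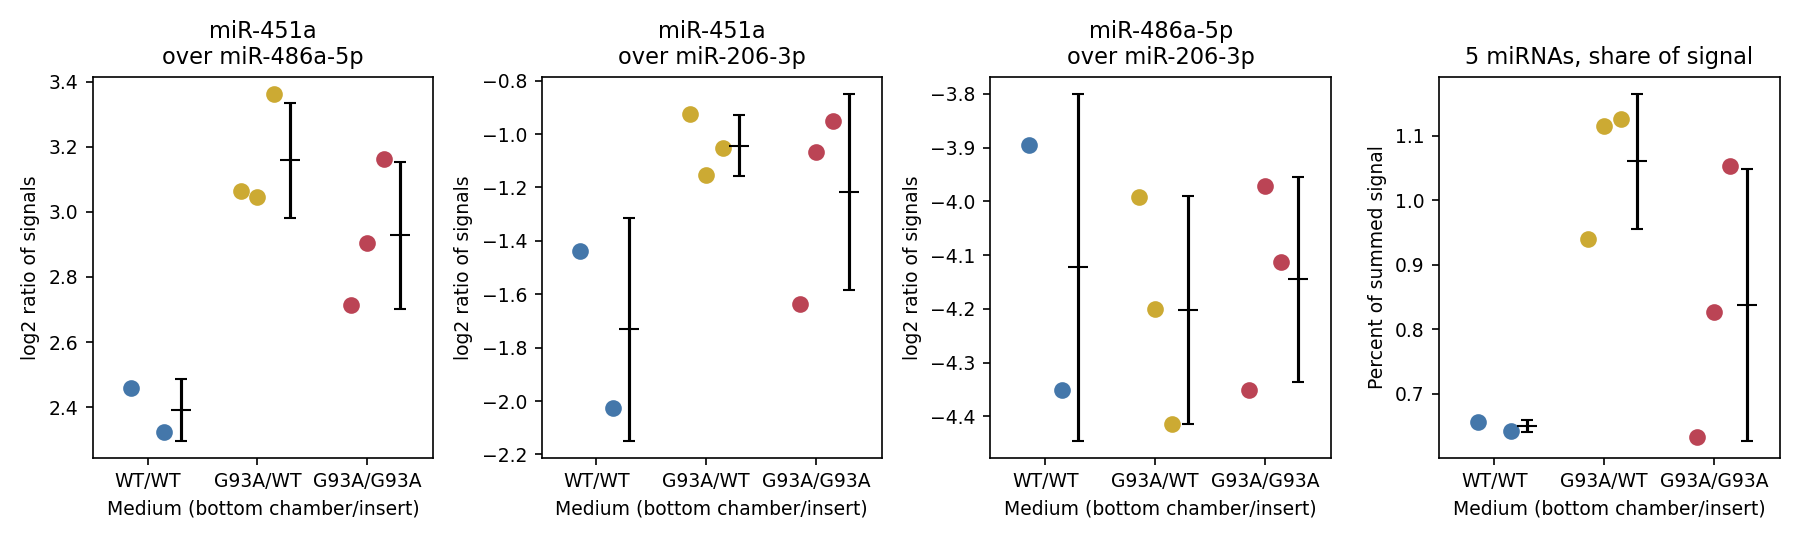
log2 ratios of deposited signals within each array and the share of the summed signal held by the 5 miRNAs (points), by medium, with mean and SD. The ratio of miR-451a to miR-486a-5p lies at 2.32 and 2.46 in WT/WT and at 2.72 to 3.36 on the other arrays, whereas the ratio of miR-486a-5p to miR-206-3p overlaps in all media.

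Together the 5 members held 0.656% and 0.643% of the summed signal in WT/WT, 0.940%, 1.12% and 1.13% in G93A/WT, and 0.633%, 0.827% and 1.05% in G93A/G93A. The G93A/G93A arrays again spanned the range from WT/WT to G93A/WT. miR-451a gave 83.1% to 90.6% of this sum of probe signals on each array, so that the share largely restates its values. The share was higher in G93A/WT than in WT/WT by 0.411 percentage points (exact permutation p = 0.1, 2-sided, the smallest possible; adjusted 0.3 over 3 comparisons). It was 0.189 points higher in G93A/G93A than in WT/WT (exact permutation p = 0.4, adjusted 0.4; 0.0807 without G93A/G93A 3 and 0.291 without G93A/G93A 1) and 0.222 points lower than in G93A/WT (exact permutation p = 0.2, adjusted 0.3; −0.222 as a difference, and −0.120 without G93A/G93A 1).

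The list of miRNAs abundant in red cells includes miR-451a, miR-486a-5p and miR-185-5p themselves, with their other arms. Of 15 on that list, 14 were measured, 8 were detected on all arrays and 5 on none (both arms of miR-144, miR-185-3p, miR-363-3p and miR-182-5p). The 6 tested that are not among the 5 members were detected on all arrays, and none of them passed in any comparison (adjusted p from 0.168 to 1 in limma; 0 also at an unadjusted p under 0.05). Their median differences were 0.03, −0.06 and −0.16. miR-92a-3p, of the miR-17-92 cluster, had mean log2 scaled signals (± SD) of 10.12 ± 0.02 in the WT/WT medium, 10.05 ± 0.06 for G93A/WT and 10.12 ± 0.15 for G93A/G93A. miR-16-5p, a regulator of the cell cycle and abundant in blood, lay at 7.14 ± 0.14, 7.14 ± 0.16 and 7.02 ± 0.11 in the same order. miR-25-3p lay at 8.05 ± 0.32, 8.11 ± 0.16 and 7.92 ± 0.36. The summed scaled signal of these 6 ran from 1538 to 1615 units in WT/WT, 1422 to 1605 in G93A/WT and 1349 to 1641 in G93A/G93A, overlapping in all media.

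Of 15 miRNAs abundant in serum, miR-122-5p among them, 14 were tested, with median differences of 0.01, −0.10 and 0.03. None passed between G93A/WT and WT/WT. Between G93A/G93A and WT/WT 2 rose: miR-423-5p by 0.65 ± 0.12 (SE, adjusted p = 0.0211 in limma) and miR-223-3p, a miRNA of myeloid cells, by 0.52 ± 0.12 (SE, adjusted p = 0.0433 in limma). Between G93A/G93A and G93A/WT 1 rose, miR-423-5p, by 0.81 ± 0.11 (SE, adjusted p = 0.00315 in limma). Over all 538 tested miRNAs 3.72% and 5.39% were called higher in these comparisons, and 8.55% and 10.6% either way. Counts this small are not told apart from those shares. Fitted with a slide row block, 0 of the 14 passed in either of these comparisons and 1 passed between G93A/WT and WT/WT, miR-122-5p. The count of 2 also fell to 0 without WT/WT 1 or without G93A/G93A 2 and to 1 without any other array but G93A/G93A 1, and the count of 1 went to 2 without G93A/WT 1 or G93A/G93A 3. The summed scaled signal of the list ran from 3691 to 3714 units in WT/WT, 3343 to 3610 in G93A/WT and 2922 to 3421 in G93A/G93A. It was highest in WT/WT, where miR-451a was low, and lowest on G93A/G93A 1, at 2922 units, where miR-451a was lowest too. Over the arrays the 12 serum miRNAs detected on every array correlated with miR-451a at Pearson r from −0.48 to 0.86, with a median of 0.12. The part of serum in the miR-451a values was not tested. miR-191-5p was detected on no array.

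Markers of other cells were read in the same way, beside the same shares over all tested miRNAs. Among leukocyte and platelet miRNAs, miR-142a-3p, miR-142a-5p and miR-150-5p were detected on no array, and 1 of the 4 tested, miR-223-3p, rose between G93A/G93A and WT/WT, a call kept without G93A/G93A 1 and lost without each of the other 7 arrays, and lost also under median scaling, without scaling, with either other floor, without a filter, with only the groups compared and with the slide row or the replicate number as a block. The 4 that were detected summed to 244 to 247 scaled units in WT/WT, 249 to 290 in G93A/WT and 251 to 290 in G93A/G93A. Of 6 fibroblast miRNAs 5 were tested, and miR-199a-5p fell between G93A/G93A and WT/WT (−0.85 ± 0.17, SE, adjusted p = 0.0291 in limma), a call lost without either WT/WT array, without G93A/WT 1 and without G93A/G93A 2 (count 0), while 2 of the list passed without G93A/G93A 3. The count was also 0 under quantile normalization, without scaling, without a filter, with only the groups compared and with either block. All 5 fibroblast miRNAs tested lay below 0 in G93A/G93A against WT/WT and against G93A/WT, with medians of −0.37 and −0.47. The medians over all tested miRNAs were −0.01 and −0.10. The summed scaled signal of the fibroblast list was 479 to 521 units in WT/WT, 420 to 558 in G93A/WT and 343 to 434 in G93A/G93A. Epithelial miRNAs moved with the groups: the 5 detected of 7 summed to 138 to 166 scaled units in WT/WT, 61.2 to 85.0 in G93A/WT and 0 to 5.36 in G93A/G93A. All 5 fell in limma in G93A/G93A against WT/WT and against G93A/WT, though with a slide row block 0 of the 538 miRNAs passed in the latter. Of these, miR-203-3p, miR-200b-3p, miR-200c-3p and miR-429-3p were detected on no G93A/G93A array and entered there at the floor. They were tested only through the other media, so that their calls add nothing to the detections, and the size of each fall depends on the floor. The order of media in the epithelial sums differs from the order of miR-451a. The leukocyte and platelet sums were lowest on the WT/WT arrays, and miR-451a too was lower there than on the G93A/WT arrays. Over the arrays these 4 miRNAs correlated with miR-451a at Pearson r from −0.03 to 0.91, with a median of 0.39. For the 4 fibroblast miRNAs detected on every array r ran from −0.33 to 0.68, with a median of 0.16. The part of these other cells in the members' values was not tested.

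The miRNAs whose log2 scaled signals followed miR-451a most closely over the 8 arrays were miR-133a-3p, a muscle miRNA (Pearson r = 0.94), miR-675-3p, processed from the imprinted H19 RNA (r = 0.92), and miR-15a-5p (r = 0.92). They are the top 3 of 422 candidates, whose median r was −0.04, and the arrays share slide, scaling and label. miR-133a-3p lay at 8.96 and 8.93 in WT/WT, 9.35, 9.66 and 9.56 in G93A/WT, and 8.28, 9.36 and 9.73 in G93A/G93A. Like miR-451a it was lowest on G93A/G93A 1, and it did not pass in any comparison (adjusted p = 0.366, 0.829 and 0.454 in limma). The 6 erythroid miRNAs outside the members had a median r with miR-451a of 0.48, ranging from −0.18 to 0.71. After removal of the group means r was 0.96 for miR-133a-3p and 0.97 for the erythroid miR-92a-3p, and for the 6 it ran from −0.30 to 0.97 with a median of 0.61.

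For miR-486a-5p the closest were miR-5621-5p (r = 0.88), miR-30c-5p (r = 0.87) and miR-30d-5p (r = 0.87). None of the 3 passed in any comparison either. miR-451a and miR-486a-5p themselves correlated at r = −0.28 over the 8 arrays and at r = 0.57 after removal of the group means. Over the arrays the log2 scaled signal of miR-451a spanned 0.69 and that of miR-486a-5p 0.47, beside a median span of 0.69 over the 423 miRNAs detected on all arrays.

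**Figure D5:**
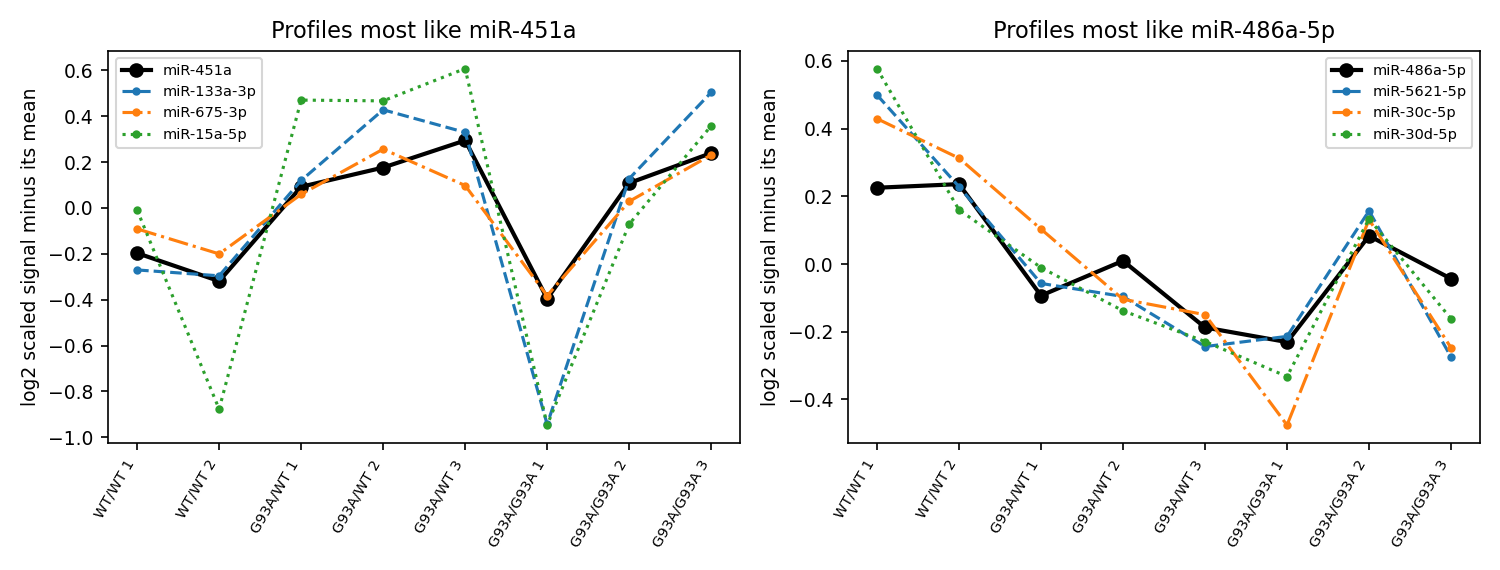
log2 scaled signal minus its mean on the 8 arrays for miR-451a (left) and miR-486a-5p (right), in black, with the 3 miRNAs most correlated with each; lines only join the points of 1 miRNA. miR-451a and miR-133a-3p are both lowest on G93A/G93A 1, and miR-486a-5p is highest on the WT/WT arrays.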

How the data were processed

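Per the file headers, the deposited array files hold for each miRNA a linear intensity, the error of that intensity and whether it was detected; an undetected miRNA is listed at 0.1. The authors' processed table also looks like linear intensity, with an unstated normalization, and holds 3 of the members. The number of arrays limits the precision.

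Signals were scaled on the 75th percentile of miRNAs detected on all arrays, floored at 1.52 units (from the arrays' lowest scaled signals called detected), and log2 was taken. The 538 miRNAs detected on at least 2 arrays were tested with limma 3.58.1 in R 4.3.3 over all 8 arrays, with Benjamini-Hochberg adjustment and a threshold of 0.05; the procedure was tested on simulated data. SE and intervals are limma's moderated ones. Ratios and shares were compared with exact permutation tests. P-values measure the spread between these samples, which may be technical.

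Members and lists were chosen with earlier results of these data known. Named were the members, their other arms, list members that passed or were bright, and the 3 miRNAs most correlated with each member detected on all arrays. Replicate numbers showed no sign of pairing: same-numbered arrays deviated together at r from −0.35 to 0.21, and 2 of 7 pairs exceeded 0.1. Pairs with other numbers ran from −0.21 to 0.32, and 5 of 14 exceeded 0.1. With so few arrays, whose deviations from a group mean are bound to oppose each other, this cannot exclude pairing. Alternatives covered scaling, floor, filter, spread, slide row, replicate number and leaving out each array.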

Additional observations from a re-analysis of the deposited data

How the results depend on the processing

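Under quantile or median scaling, both other floors, the other filters, the robust trend, fits of only the groups compared and the authors' values, 0 members passed in limma. Without scaling 2 passed between G93A/WT and WT/WT, miR-451a (1.22) and miR-122-5p (1.62), while miR-486a-5p turned to 0.45; between G93A/G93A and G93A/WT miR-486a-5p turned to −0.58 and miR-122-5p to −0.54. The median of all tested miRNAs was then 0.79 and −0.68. With a slide row block 1 member passed between G93A/WT and WT/WT (miR-122-5p, 1.69, which rests on the undetected WT/WT 1 alone), and its difference between G93A/G93A and G93A/WT turned to −1.13. That turn rests on the WT/WT arrays, 1 in each row, of which WT/WT 1 was undetected and entered at the floor. The cause of the other changes was not tested.

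Where a WT/WT array was left out, the other was assumed to vary like the other groups. Leaving out each array in turn, between 0 and 1 members passed in each comparison. For miR-122-5p the differences ran from 0.53 to 1.72 (G93A/WT minus WT/WT), 0.59 to 1.79 (G93A/G93A minus WT/WT) and −0.0747 to 0.16 (G93A/G93A minus G93A/WT). For miR-486a-5p they ran from −0.0561 to 0.10 in the third. For miR-185-5p they ran from 0.55 to 0.82 in the first and −0.82 to −0.55 in the third, but these set undetected arrays at the floor (0.97 in the first with a floor of 1 unit, 0.37 with each array's lowest signal), and the call made without G93A/WT 1 drops the 1 array of its group that did not detect it, so they test nothing. The differences between media in the log2 ratio of miR-451a to miR-206-3p ran from 0.39 to 0.98, 0.22 to 0.81 and −0.31 to 0.0356. Those in the log2 ratio of miR-486a-5p to miR-206-3p ran from −0.31 to 0.15, −0.25 to 0.21 and −0.0496 to 0.16.

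With the replicate number as a block no member's call changed; miR-451a differed by 0.36 between G93A/WT and WT/WT (adjusted p = 0.373 in limma), and the whole-table counts fell from 21, 46 and 57 to 8, 10 and 37. Without G93A/G93A 3 they were 61, 56 and 121, and with a slide row block 16, 7 and 0. Higher and lower calls split 17 to 4, 20 to 26 and 29 to 28 as reported, 6 to 9, 19 to 19 and 29 to 25 after quantile normalization, 16 to 11, 5 to 28 and 28 to 27 after median scaling, 130 to 0, 7 to 7 and 1 to 148 without scaling, and 2 to 3, 25 to 23 and 35 to 10 in the authors' values. Of the serum miRNAs, 2 passed between G93A/G93A and WT/WT as reported 1 with either other floor, and 0 after median scaling, without scaling, without a filter, with only the groups compared and with the replicate number as a block. Scaling on the 75th percentile of all miRNAs was not run, because that percentile was the undetected value of 0.1 on 3 arrays. Depth is not defined for arrays, and signals near the floor limit miR-122-5p and miR-185-5p.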
